A study of Mus musculus with 4 samples.

Results

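S100 proteins are small calcium-binding proteins of vertebrates, built around a pair of EF-hand loops, that mostly work as dimers. Inside the cell they change shape when calcium enters and then bind partners such as annexins, which sit on membranes, and non-muscle myosin, which moves the cell. Some are also released and act on receptors of neighbouring cells, and myeloid cells are a source of several of them in inflamed tissue. Of 8 S100 genes chosen by name for their family (S100a1, S100a4, S100a6, S100a8, S100a9, S100a10, S100a11 and S100a13), 6 were matched among the 13976 genes of the expression table and are described here. S100a8 and S100a9 were not analysed here. The rule takes genes by name.

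The RNA came from cells sorted out of EO771 tumours. EO771 is a cell line of a mouse mammary carcinoma. Each of 4 populations had 1 library: a dendritic cell (DC) population labelled CD103intCD11b+DC (CD103int DC below), conventional DC of type 1 labelled CD103+cDC1 (cDC1), conventional DC of type 2 labelled CD11b+cDC2 (cDC2), and macrophages. The labels used here give no strain, age, number of mice, sort gates or treatment for any library, and the study's title names a locoregional treatment with heterodimeric interleukin-15. With 1 library for each population no difference could be checked against replicate error, so no p-value or SD is given.

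Levels are in CPM (counts per 1000000 reads) as scaled by the authors, and the interval after a level or a ratio is its 95% counting interval from estimated reads. These intervals cover counting error only. The libraries held between 44425900 and 63817500 estimated reads (to 6 digits), and a level of 10 CPM stood for between 464 and 574 of them. A gene was counted as different between 2 libraries when log2(CPM + 1) differed by 1 or more (2-fold) and at least one of them reached 10 CPM. Markers of the sorted cells followed the labels in part. Of 9 cDC2 markers, 4 were counted as higher in cDC1 than in cDC2 and 2 as lower. Over all genes 7.27% were higher and 9.56% lower in that pair. Cd209a stood at 257 CPM in cDC1 against 31.5 CPM in cDC2, and Sirpa at 400 against 1062 CPM. Xcr1, the chemokine receptor of cDC1, stood at 9.13 CPM in CD103int DC, 130.5 in cDC1, 1.72 in cDC2 and 8.28 in macrophages, whereas Csf1r, the growth factor receptor of macrophages, stood at 925, 409, 1096 and 1538 CPM in the same order. The summed level of 14 macrophage markers was 3470 CPM in CD103int DC, 988 CPM in cDC1, 5000.0 CPM in cDC2 and 4839 CPM in macrophages, so the cDC2 library carried about as much of them as the macrophage library. The name of the macrophage column starts with another code than those of the DC, and if the code marks a batch, batch and population cannot be told apart. In bulk samples fewer cells of a type and less RNA per cell cannot be told apart.

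The 6 genes fell into 4 that were abundant in every population and 2 that were scarce. S100a10, S100a11, S100a6 and S100a4 stood between 137 and 389 CPM in every library, and S100a1 and S100a13 between 2.73 and 18.8 CPM. Their summed level was 1276 CPM in CD103int DC, 949 CPM in cDC1, 979 CPM in cDC2 and 996 CPM in macrophages. S100a1 and S100a13 together made up 2.51% of that sum in CD103int DC, 1.09% in cDC1, 2.56% in cDC2 and 2.18% in macrophages. Of the 6 genes, 5 had their highest level in CD103int DC as the values were deposited, and the exception was S100a4, highest in macrophages. With columns rescaled to equal totals S100a4 was highest in CD103int DC too. Without rRNA-like and mitochondrial entries in the totals, S100a11 and S100a6 were highest in cDC1 and S100a4 in CD103int DC. The share of all genes highest in CD103int DC was not computed, so the count of 5 cannot be read as a trait of the family.

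**Figure D1:**
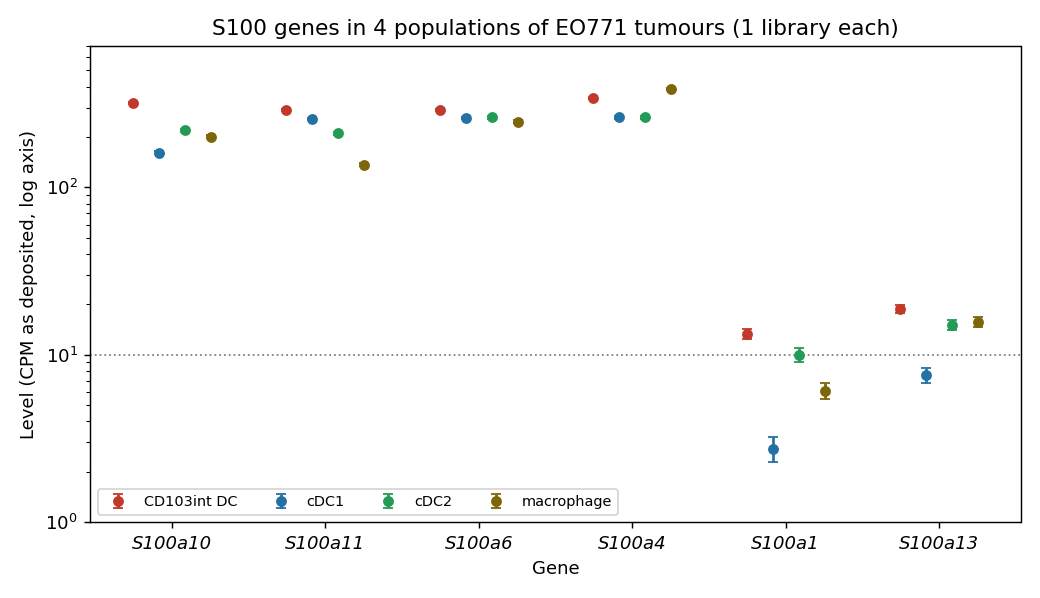
Level of each S100 gene in CPM (log axis) in the 4 libraries, with 95% counting intervals; the dotted line marks 10 CPM. S100a6 is nearly level across the libraries, S100a4 is highest in macrophages as deposited (in CD103int DC with columns rescaled to equal totals), and S100a1 and S100a13 are lowest in cDC1, at 2.73 and 7.58 CPM.

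All 6 genes lie on chromosome 3 in assembly GRCm38, in 2 groups 2896 kb apart. S100a1 (ENSMUSG00000044080.9, 90511034 to 90514392, minus strand), S100a13 (ENSMUSG00000042312.9, 90514435 to 90524581, plus strand), S100a4 (ENSMUSG00000001020.8, 90603771 to 90606045, plus strand) and S100a6 (ENSMUSG00000001025.8, 90612882 to 90624181, plus strand) form the first group. S100a11 (ENSMUSG00000027907.4, 93520488 to 93526287, plus strand) and S100a10 (ENSMUSG00000041959.14, 93555080 to 93564643, plus strand) form the second. S100a1 and S100a13 are transcribed away from each other, and only 42 bases separate their annotated starts. That stretch is shown because both genes beside it had their lowest level in cDC1. The upstream 150 bases of S100a4 and of S100a11 are shown beside it because macrophages had the highest level of S100a4 and the lowest of S100a11 as deposited, S100a4 being highest in CD103int DC with columns rescaled to equal totals. Capitals mark the matches named after the sequences, all are written 5′ to 3′ on the plus strand, and the bases are those of RefSeq on GRCm38.p6.
Between S100a1 and S100a13 (chr3:90514393-90514434): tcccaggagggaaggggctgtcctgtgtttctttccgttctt
Upstream of S100a4 (chr3:90603620-90603769): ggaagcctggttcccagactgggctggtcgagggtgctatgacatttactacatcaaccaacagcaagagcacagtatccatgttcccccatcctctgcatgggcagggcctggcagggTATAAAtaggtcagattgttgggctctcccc
Upstream of S100a11 (chr3:93520338-93520487): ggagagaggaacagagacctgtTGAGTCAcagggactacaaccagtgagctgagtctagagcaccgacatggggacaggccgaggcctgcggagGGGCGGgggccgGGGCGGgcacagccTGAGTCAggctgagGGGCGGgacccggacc

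The search covered 6 short motifs on both strands in windows of 300 bases, from 250 bases before to 50 bases after each RefSeq start, and the same windows of 32851 promoters gave the background. S100a4 held 1 TATA box (TATAAA), which 13.6% of all promoters hold. S100a11 held 3 GC boxes (GGGCGG, held by 35.7% of promoters) and 2 AP-1 motifs (TGANTCA, held by 7.81%). It also held 1 ETS core (GGAAGT, held by 23.8%) and 1 E-box (CACGTG, held by 7.15%), neither of them within the stretch shown. S100a1 and S100a13 held neither a TATA box, a GC box nor an AP-1 motif in these windows, and shared 1 ETS core where their windows overlap. S100a6 held 1 E-box and 1 CCAAT box (CCAAT, held by 37.4%). S100a10 had no entry among these promoters and is named only. A match describes letters and not a bound site, and no binding or chromatin was measured in these samples.

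S100a1 had the widest range between the populations under every scaling tried, and S100a13 came after it as deposited. The highest level of S100a13 was 2.48 times its lowest, against 2.13 times for S100a11, but with columns rescaled to equal totals these were 2.30 and 2.55 times. S100a1, a calcium sensor best known from heart muscle, where it acts on the ryanodine receptor, stood at 13.3 CPM (12.4 to 14.3) in CD103int DC, 2.73 CPM (2.29 to 3.24) in cDC1, 10.003 CPM (9.11 to 10.96) in cDC2 and 6.07 CPM (5.43 to 6.75) in macrophages. Its counting intervals did not overlap between any 2 libraries, and nor did those of S100a10 and S100a11. Such intervals are narrow at this depth and leave out errors of scaling. The share of all genes without overlap was not computed, so the lack of overlap says little about these genes. S100a1 in CD103int DC stood at 4.87-fold (4.05 to 5.90) its level in cDC1. It was 2.19-fold (1.93 to 2.50) that in macrophages and 1.33-fold (1.18 to 1.50) that in cDC2. S100a13, which takes part in the release of fibroblast growth factor 1 and interleukin-1 alpha by a route without a signal peptide, stood at 18.8 CPM (17.7 to 19.9) in CD103int DC, 7.58 CPM (6.83 to 8.39) in cDC1, 15.1 CPM (14.0 to 16.3) in cDC2 and 15.7 CPM (14.6 to 16.8) in macrophages. Its cDC2 and macrophage levels did not differ beyond counting error (ratio 0.963, 0.870 to 1.07), and that ratio turned above 1 with columns rescaled to equal totals. The ratio of CD103int DC to cDC1 was 2.48 (2.20 to 2.79). Both neighbours thus had their highest level in CD103int DC and their lowest in cDC1 under every scaling tried, but not in constant proportion. The level per kilobase of exon of S100a13 was 1.37 times that of S100a1 in CD103int DC, 2.69 times in cDC1, 1.46 times in cDC2 and 2.51 times in macrophages.

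S100a10 and S100a11 bind annexins and had their highest deposited levels in CD103int DC. S100a10 (p11) holds annexin A2 at the plasma membrane and stays in its active shape without calcium. It stood at 321 CPM (316 to 326) in CD103int DC, 161 CPM (157 to 165) in cDC1, 219 CPM (215 to 223) in cDC2 and 201 CPM (198 to 205) in macrophages. CD103int DC was set above every other library, by 1.99-fold (1.94 to 2.05) over cDC1, 1.47-fold (1.43 to 1.50) over cDC2 and 1.59-fold (1.56 to 1.63) over macrophages. On the log2(CPM + 1) scale the difference from cDC1 was 0.99, just short of the 2-fold rule. cDC1 was lowest as deposited, whereas macrophages were lowest, with 178 CPM in cDC1 against 172 CPM in macrophages, with columns rescaled to equal totals.

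S100a11, a partner of annexin A1, ran in another order. It stood at 291 CPM (286 to 295) in CD103int DC, 257 CPM (252 to 261) in cDC1, 211 CPM (206 to 215) in cDC2 and 137 CPM (133 to 140) in macrophages. Macrophages were the low library here, and cDC1 stood close to CD103int DC. The ratio of CD103int DC to macrophages was 2.13 (2.07 to 2.19), and that of cDC1 to macrophages was 1.88 (1.83 to 1.94). CD103int DC was 1.13-fold (1.11 to 1.16) above cDC1 as deposited, and below it (log2 difference -0.03) without rRNA-like and mitochondrial entries in the totals. The estimated reads of S100a11 were not whole in any of the 4 libraries, unlike those of the other 5 genes, and GENCODE lists a processed pseudogene of it, so that its level is uncertain where reads could belong to either.

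S100a6 was the steadiest of the 6 genes as deposited. S100a6 (calcyclin), which binds the calcyclin-binding protein Cacybp and annexin A11, stood at 289 CPM (284 to 293) in CD103int DC, 259 CPM (255 to 264) in cDC1, 262 CPM (257 to 267) in cDC2 and 247 CPM (243 to 251) in macrophages. Its highest level was 1.17 times its lowest, and 1.40 times with columns rescaled to equal totals, where S100a4 had the narrower range, at 1.30 times. Of 8724 genes that reached 10 CPM somewhere, 7.06% had a smaller range on log2(CPM + 1). cDC1 and cDC2 did not differ beyond counting error (ratio 0.988, 0.964 to 1.01), and their order turned with columns rescaled to equal totals.

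S100a4 was the one member highest in macrophages as deposited. S100a4 (metastasin, also called fibroblast-specific protein 1), which binds the heavy chain of non-muscle myosin and is also expressed by fibroblasts and macrophages, stood at 344 CPM (339 to 349) in CD103int DC, 262 CPM (257 to 266) in cDC1, 263 CPM (258 to 267) in cDC2 and 389 CPM (383 to 394) in macrophages. The 2 conventional DC libraries were level, at a ratio of cDC1 to cDC2 of 0.997 (0.972 to 1.02). CD103int DC stood 1.31-fold (1.29 to 1.34) above cDC1 and 1.31-fold (1.28 to 1.34) above cDC2. Its ratio to macrophages was 0.885 (0.868 to 0.902), and this order turned with columns rescaled to equal totals, to 353 CPM in CD103int DC against 332 CPM in macrophages. The gene model Gm42674 has 2 exons that overlap the span of S100a4 on the same strand. Whether they meet exons of S100a4 was not examined. Gm42674 was not analysed here, and any reads common to both could have been assigned to either. Monocyte markers were also highest in macrophages. Their summed level over 14 genes was 2480 CPM in CD103int DC, 2151 CPM in cDC1, 2898 CPM in cDC2 and 9743 CPM in macrophages. Their part in the S100a4 level was not tested.

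Per kilobase of merged exon, S100a4 and S100a11 were the most abundant members. S100a4 reached 589 CPM per kilobase in CD103int DC, 448 in cDC1, 449.6 in cDC2 and 666 in macrophages, which placed it within the top 0.601% of all genes in each library. S100a11 reached 569 CPM per kilobase in CD103int DC, 503 in cDC1, 412 in cDC2 and 267 in macrophages. S100a4 thus lay above S100a11 per kilobase in CD103int DC, cDC2 and macrophages and below it in cDC1. S100a10 ranged from 133 to 265 and S100a6 from 181 to 211 CPM per kilobase, and all 4 abundant genes were within the top 2.02% in every library. S100a1 lay within the top 14.8% in CD103int DC and only within the top 46.0% in cDC1. These lengths count every annotated exon, between 511 bases for S100a11 and 1367 bases for S100a6, and the shares would shift with the transcripts that are in use.

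Set pair by pair, the S100 genes gave few differences of 2-fold, and all of them involved S100a1, S100a11 or S100a13. Against cDC1, CD103int DC had 2 of 6 members higher (S100a1 and S100a13) and 0 lower, where 9.16% of 8443 genes were higher and 5.46% lower. Against cDC2, CD103int DC had 0 of 6 higher and 0 lower, where 1.56% of 8119 genes were higher and 0.665% lower. Against macrophages, CD103int DC had 2 of 6 higher (S100a11 and S100a1) and 0 lower, where 4.35% of 8254 genes were higher and 8.31% lower. None of the 6 genes was lower by 2-fold in CD103int DC than in any of the other populations. Shares of all genes this low leave few lower members to expect among 6, so this count says little. S100a1 passed the rule against macrophages narrowly, at a log2 difference of 1.02.

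cDC1 against cDC2 had 1 of 6 members lower (S100a1, log2 difference -1.56) and 0 higher, where 9.56% of 8459 genes were lower and 7.27% higher. This call rests on the 10 CPM minimum, since the cDC2 level lay so close to it, and it was lost with median-ratio scaling, at 9.94 CPM. cDC1 against macrophages had 0 of 5 members higher or lower, where 9.21% of 8468 genes were higher and 15.8% lower. S100a1 was below 10 CPM in both of these libraries and could not be counted, at a log2 difference of -0.92. S100a13 (-0.96) and S100a11 (0.91) came near the rule. cDC2 against macrophages also had 0 of 6 higher or lower, where 1.78% of 8141 genes were higher and 6.01% lower, and the widest difference was that of S100a1, at 0.64.

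The median log2 difference of the 6 genes was 0.69 in CD103int DC against cDC1, 0.38 against cDC2 and 0.46 against macrophages, beside medians of 0.03, 0.02 and -0.07 over all genes tested in the same pairs. The number of members above 0 was 6, 6 and 5 of 6 as deposited, and these counts moved with the scaling. The share of all genes above 0 was not computed beside them. S100a11 and S100a6 fell to -0.03 and -0.06 against cDC1 without rRNA-like and mitochondrial entries in the totals. S100a4 against macrophages turned from -0.18 to 0.09 with columns rescaled to equal totals. These 3 comparisons share the CD103int DC library. Among the others, the median was -0.23 in cDC1 against cDC2 (all genes -0.01), -0.45 in cDC1 against macrophages (all genes -0.09) and 0.10 in cDC2 against macrophages (all genes -0.09). The medians moved with the scaling. With columns rescaled to equal totals that of CD103int DC against macrophages was 0.71 (all genes 0.20), that of cDC1 against cDC2 was -0.13 (all genes 0.09), that of cDC1 against macrophages was -0.08 (all genes 0.29) and that of cDC2 against macrophages was 0.37 (all genes 0.18). Without rRNA-like and mitochondrial entries in the totals the last 3 were -0.04, -0.03 and 0.33.

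**Figure D2:**
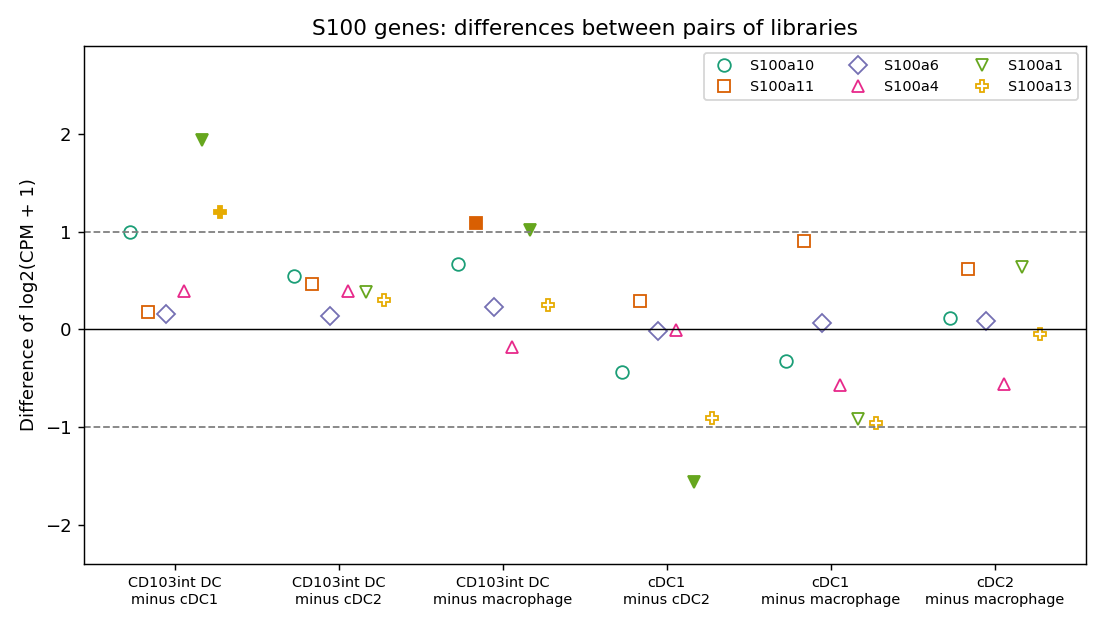
Difference of log2(CPM + 1) between the 2 libraries of each of 6 pairs, for the 6 S100 genes; dashed lines mark the 2-fold rule and filled symbols the members that passed it. All 6 genes lie above 0 in CD103int DC against cDC1 and against cDC2 as deposited, S100a11 and S100a6 falling to -0.03 and -0.06 against cDC1 without rRNA-like and mitochondrial entries in the totals, and S100a1 reaches 1.94 against cDC1.

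The partners of the S100 proteins inside the cell followed their S100 genes in some cases and not in others. Anxa2, which encodes annexin A2, stood at 744 CPM in CD103int DC, 384 in cDC1, 491 in cDC2 and 704 in macrophages. S100a10 per kilobase was 1.33 times Anxa2 in CD103int DC, 1.29 times in cDC1, 1.37 times in cDC2 and 0.881 times in macrophages. The proportion was thus nearly constant among the DC libraries and lower in macrophages, where Anxa2 was high and S100a10 was not. Ahnak, a giant scaffold protein that binds the S100a10 and annexin A2 complex, stood at 4972 CPM in CD103int DC, 2253 in cDC1, 2482 in cDC2 and 6789 in macrophages, and was counted as higher in CD103int DC than in cDC1. Its difference from cDC2 was at the threshold, at a log2 difference of 1.002, and fell below it with columns rescaled to equal totals, at 0.993.

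Anxa1, which encodes annexin A1, did not follow S100a11. It stood at 325 CPM in CD103int DC, 101 in cDC1, 301 in cDC2 and 188 in macrophages. The level of S100a11 per kilobase was 5.09 times that of Anxa1 in CD103int DC, 14.6 times in cDC1, 3.98 times in cDC2 and 4.13 times in macrophages. cDC1 was the library that stood apart, with a near-highest level of S100a11 and the lowest of Anxa1. Set against Anxa2, S100a11 per kilobase was 2.85 times in CD103int DC, 4.88 times in cDC1, 3.13 times in cDC2 and 1.42 times in macrophages. Anxa6, which encodes another annexin bound by S100a11, ran the other way, at 210 CPM in CD103int DC, 426 in cDC1, 168 in cDC2 and 266 in macrophages.

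The ratios of S100a4 to Myh9 and of S100a6 to Cacybp varied little between the libraries. S100a4 per kilobase was 5.07 times Myh9, the gene of the non-muscle myosin heavy chain, in CD103int DC, 6.12 times in cDC1, 5.22 times in cDC2 and 5.33 times in macrophages. S100a6 per kilobase was 11.6 times Cacybp in CD103int DC, 10.4 times in cDC1, 10.8 times in cDC2 and 11.5 times in macrophages. Cacybp itself ranged only from 37.6 to 43.6 CPM and S100a6 was nearly level too. Their steady ratio thus does not show that they change together. S100a6 per kilobase was 9.65 times Anxa11, the gene of annexin A11, in CD103int DC. It was 10.8 times in cDC1, 9.16 times in cDC2 and 7.52 times in macrophages. Ratios within a library do not depend on how the columns are scaled.

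**Figure D3:**
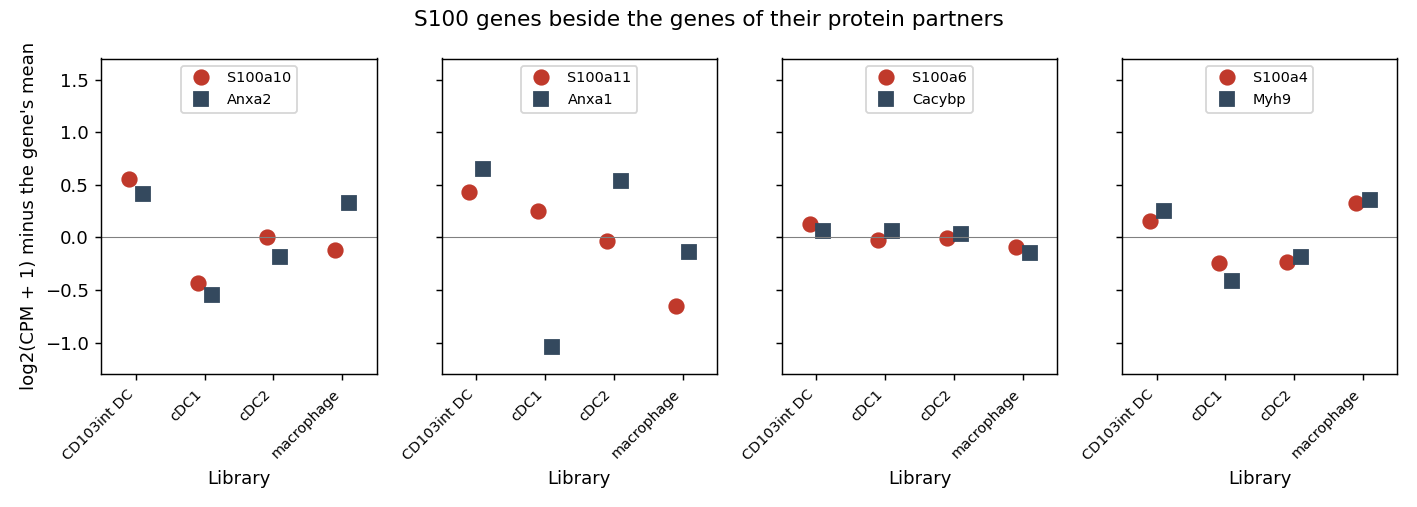
log2(CPM + 1) minus the gene's mean over the 4 libraries, for 4 S100 genes (circles) and the gene of a protein partner of each (squares). The cDC1 library separates S100a11 (257 CPM) from Anxa1 (101 CPM), while S100a4 and Myh9 keep nearly the same profile.

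Of 15 genes listed for S100 partners, 13 were matched. CD103int DC against cDC1 had 2 of 13 higher (Anxa1 and Ahnak) and 1 lower (Anxa6), against cDC2 1 higher (Ahnak) and 0 lower, and against macrophages 0 either way. Over all genes the shares were 9.16% higher and 5.46% lower against cDC1, 1.56% and 0.665% against cDC2, and 4.35% and 8.31% against macrophages. Their median log2 difference was 0.52, 0.06 and -0.10 in these pairs. Il1a, whose product is a cargo of S100a13, stood at 5.19 CPM in CD103int DC, 0.387 in cDC1, 7.84 in cDC2 and 7.03 in macrophages, below the minimum of the rule in every library. Like S100a13 it was lowest in cDC1. S100pbp, an S100-binding protein first described in human cells, stood at 13.2 CPM in CD103int DC, 24.0 in cDC1, 13.04 in cDC2 and 13.2 in macrophages and was highest in cDC1.

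Several annexin genes were counted as different between CD103int DC and cDC1. Of 12 annexin genes listed 9 were matched, and CD103int DC against cDC1 had 3 higher (Anxa1, Anxa3 and Anxa4) and 1 lower (Anxa6), with 0 either way against cDC2 and against macrophages. Over all genes 9.16% were higher and 5.46% lower against cDC1. The shares were 1.56% and 0.665% against cDC2, and 4.35% and 8.31% against macrophages. At these lower shares few of 9 genes would be counted, so the 0 there says little. Anxa3 stood at 23.8 CPM in CD103int DC, 0.224 in cDC1, 23.3 in cDC2 and 16.0 in macrophages. Anxa4 stood at 444 CPM in CD103int DC, 111 in cDC1, 455 in cDC2 and 333 in macrophages. The other annexins stayed within 2-fold in these 3 pairs, their medians being 0.70 against cDC1, 0.06 against cDC2 and 0.11 against macrophages over the 9 genes.

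Among receptors on which secreted S100 proteins act, Tlr4, Cd14 and Cd36 had their lowest level in cDC1. Of 8 genes listed 7 were matched. In CD103int DC against cDC1, 3 of 7 were higher and 0 lower (median 1.23): Tlr4, the lipopolysaccharide receptor that also answers S100 proteins, at 52.6 against 13.7 CPM, its co-receptor Cd14 at 251 against 41.0 CPM, and the scavenger receptor Cd36 at 188 against 65.6 CPM. Over all genes 9.16% were higher and 5.46% lower in that pair. Against cDC2 0 of 7 were higher or lower (median -0.03), beside 1.56% and 0.665% of all genes. Against macrophages 1 was higher (Cd36, 188 against 89.3 CPM) and 1 lower (Cd14, 251 against 594 CPM), with a median of -0.39, beside 4.35% and 8.31% of all genes. Bsg, the gene of the membrane protein CD147, stood at 131 CPM in CD103int DC, 95.2 in cDC1, 134 in cDC2 and 94.9 in macrophages.

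**Figure D4:**
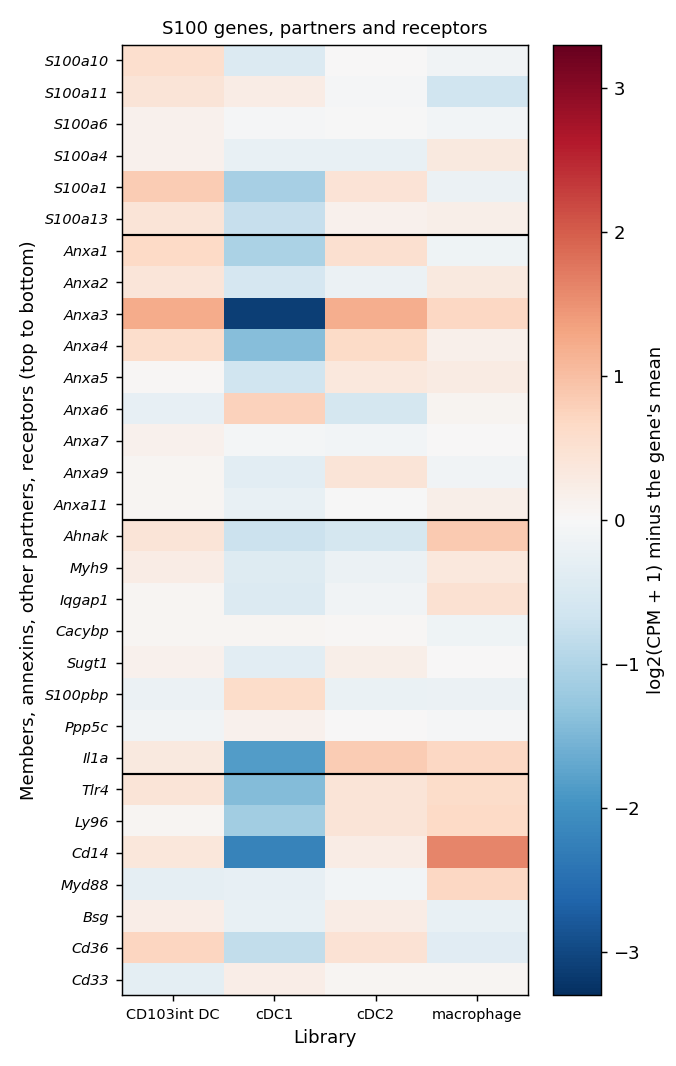
log2(CPM + 1) minus each gene's mean over the 4 libraries, for the 6 S100 genes, the annexins, other S100 partners and receptors, separated by black lines from top to bottom. The cDC1 column is the lowest for S100a1, Anxa1, Anxa3, Anxa4, Tlr4 and Cd14, and the highest for Anxa6 and S100pbp.

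The genes with the most similar pattern were found by the root mean square difference of log2(CPM + 1) after centring each gene on its mean over the 4 libraries, among 8724 genes, for the members with a range of at least 1. For S100a1 they were Piwil2 (0.06), Mcub (0.09) and Anxa1 (0.11). For S100a13 they were Snx14 (0.04), Got1 (0.05) and Cpt1a (0.05), and for S100a11 Espl1 (0.04), Ptgr1 (0.05) and Acot7 (0.06). Likeness over 4 libraries is a weak measure, since many genes come close to each other over so few points. S100a13 ranked 188 in likeness to S100a1, at 0.36, and S100a1 ranked 1625 in likeness to S100a13, so that the gene nearest in the genome was not among the nearest in pattern. S100a10, whose neighbour is S100a11, ranked 3274 in likeness to S100a11, at 0.44.

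Cells of other kinds that express S100 genes were looked for by their markers. Fibroblast markers, relevant to S100a4 and S100a6, summed to 10.7 CPM in CD103int DC, 10.1 in cDC1, 43.7 in cDC2 and 20.1 in macrophages over 4 of 6 genes. Of 17 neutrophil markers 7 were matched, with sums of 123 CPM in CD103int DC, 63.3 in cDC1, 142 in cDC2 and 296 in macrophages. In CD103int DC against macrophages 4 of the 7 were lower and 0 higher, beside 8.31% and 4.35% of all genes. Csf3r stood at 33.2 CPM in CD103int DC, 8.87 in cDC1, 62.2 in cDC2 and 157 in macrophages, and Cd177 at 1.06, 1.63, 0.733 and 63.7 CPM in the same order. Padi4, at 12.3 CPM, and Mmp8, at 11.9 CPM, were highest in macrophages as well. The other matched markers were not. Il1r2 was highest in CD103int DC, at 77.7 CPM against 49.3 CPM in macrophages. Cxcr2 ranged from 1.12 to 2.26 CPM and was also highest in CD103int DC. Mmp9 was lowest in macrophages, at 0.788 CPM, and highest in cDC2, at 3.19 CPM. Of 6 epithelial markers 3 were matched, with sums of 199.8 CPM in CD103int DC, 425 in cDC1, 120.1 in cDC2 and 89.9 in macrophages. Nearly all of this was Cdh1, the gene of E-cadherin, which DC can also express, at 194.5, 416, 118 and 87.9 CPM in the same order, and the keratin gene Krt8 stood between 1.03 and 3.20 CPM. T cell markers summed to between 9.28 and 37.5 CPM over 8 genes and NK cell markers to between 0.853 and 11.7 CPM over 5 of 6. The cDC1 library, in which S100a1 and S100a13 were lowest, also listed 454 genes at 0, against between 10 and 20 in the other libraries, and had the most of 6 matched plasmacytoid DC markers of 9. These summed to 136 CPM in CD103int DC, 739.5 in cDC1, 174 in cDC2 and 263 in macrophages. The part of these in the S100 levels was not tested.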

How the data were processed

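The authors deposited 1 table of expression signal for 13976 genes by 4 libraries, in CPM with TMM scaling (trimmed mean of M values) after gene filtering, per the file name. Total RNA was treated with DNase and made into directional libraries, per the labels' protocols. The aligner, counter, strand setting and build were not given in the sources. All 13976 identifiers matched GENCODE M21 (GRCm38), which supplied coordinates and exon lengths.

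The value of 1 read was recovered from each column. Between 70.6% and 79.0% of values were whole multiples of it (tolerance 0.001), so no count test was run. Exact Poisson and Clopper-Pearson intervals at 95% were computed with scipy 1.17.1. The 2-fold rule, a pseudocount of 1 and a minimum of 10 CPM were used throughout, with 1 CPM for list medians. All matched members were named, with listed partners and receptors that passed the rule and the 3 genes nearest in pattern. The members and lists were chosen with earlier results of these data known. A planned comparison of protein sequences was not run. The rule and intervals were tested on simulated data with Poisson counting error only. That test says nothing about replicate, batch or scaling error.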

Additional observations from a re-analysis of the deposited data

How the results depend on the processing

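Alternatives were 3 other scalings, a pseudocount of 0.1, and minimums of 1 and 0 CPM, applied to the counts of S100 genes called in 6 pairs. Of these counts, the following moved. In cDC1 against macrophages the count higher became 1 (S100a11), against 0, after rescaling to equal totals and with totals lacking rRNA-like and mitochondrial entries, and the count lower became 1 (S100a13) with the smaller pseudocount. In cDC1 against cDC2 the count lower became 0 with median-ratio scaling. No called difference changed sign, but this check could hardly fail. Each call was at least 1 on the log2 scale, and scaling shifted the medians by at most 0.40. Some uncalled differences did turn, such as S100a10 in cDC1 against macrophages (-0.32 as deposited, 0.05 with equal totals). Equal totals shifted the median over all genes, on the log2 scale, by -0.10 (CD103int DC against cDC1), 0.25 (CD103int DC against macrophages), 0.36 (cDC1 against macrophages) and 0.26 (cDC2 against macrophages), and totals without rRNA-like and mitochondrial entries shifted these by -0.21, 0.20, 0.40 and 0.22 and cDC1 against cDC2 by 0.18. Of 36 differences of single members, 26 moved beyond counting error under the first and 27 under the second, and 0 under median-ratio scaling. No paired analysis was possible because each population had 1 library. The depth limits S100a1 in cDC1 most, at 134 estimated reads.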
